A study of Callithrix jacchus with 4 samples.

Results

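The genes described here are TCF7L2, LHX9, GBX2, ZIC1, ZIC2, PRKCD, RORA and CBLN1, 8 of the 35205 rows of a gene count table from newborn marmoset brain. They were taken by symbol, as genes that mark brain regions outside the cortex, striatum and hippocampus, mainly the thalamus and hindbrain. They were selected on their counts in the 4 libraries, with earlier results of these data known, so their levels and group differences are given as a description, with no test of their own. The RNA-seq libraries were made from common marmosets (Callithrix jacchus) at postnatal day 5, 2 from wild-type and 2 from FMR1 mutant samples. FMR1 encodes FMRP, the RNA-binding protein lost in fragile X syndrome, and the mutants were made with CRISPR/Cas9. The study describes its samples as forebrain with cortex, striatum and hippocampus, while each library's label says only brain. The mutant allele, sex, litter and dissection of each library are not given in the labels, and nothing says that the libraries of a group came from separate animals. A p-value here is therefore set against the spread of these libraries, which may be technical.

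The thalamus relays sensory and motor signals to the cortex and lies directly beneath the forebrain structures named in the study. Its excitatory neurons arise under the transcription factors GBX2, LHX9 and TCF7L2, and they differ from cortical neurons in using the vesicular glutamate transporter SLC17A6. ZIC1 and ZIC2 are zinc finger factors of the dorsal neural tube, cerebellum, thalamus, septum and meninges. RORA is a nuclear receptor of thalamic neurons and of Purkinje cells, the output neurons of the cerebellar cortex. PRKCD, a protein kinase C, is abundant in thalamic relay neurons, and CBLN1 is a secreted protein that organises synapses in the cerebellum. Several are also made elsewhere: TCF7L2 in newly formed oligodendrocytes, RORA in cortical neurons and ZIC1 in meningeal cells.

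All 8 genes were highest in wild-type replicate 1, by amounts that ran from 9.82-fold for TCF7L2 to 1.31-fold for RORA over the mean of the remaining libraries. Values are CPM, counts scaled to a common library size with TMM factors. The 8 genes together reached 287 CPM in wild-type replicate 1, against 114 CPM in wild-type replicate 2 and 101 and 102 CPM in mutant replicates 1 and 2. Wild-type replicate 2 thus lay near the mutant libraries and far from its own group partner. In bulk tissue, fewer cells of a type and less RNA per cell cannot be told apart.

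Among the thalamic transcription factors, TCF7L2, a partner of beta-catenin in Wnt signalling, was at 96.0 CPM in wild-type replicate 1, 11.3 CPM in wild-type replicate 2, and 9.01 and 8.98 CPM in mutant replicates 1 and 2. Its level in the first library was 9.82 times the mean of the other 3. LHX9, a LIM homeodomain factor of early thalamic neurons, was counted 115 times in wild-type replicate 1 and 8 times in wild-type replicate 2, against 11 and 16 times in the mutant libraries. For LHX9 the groups overlapped, since wild-type replicate 2 was the lowest of all (0.651 CPM, against 0.840 and 1.19 CPM in the mutant libraries). GBX2, a homeodomain factor needed for thalamic neurons and for the border of midbrain and hindbrain, was counted 62, 9, 5 and 10 times in the same order of libraries. The ratio of wild-type replicate 1 to the mean of the rest was 9.72 for LHX9 and 7.56 for GBX2. The libraries outside wild-type replicate 1 thus held few reads of either gene, and GBX2 fell short of the low-count filter.

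The ZIC factors differed from each other. ZIC1 was at 42.5 CPM in wild-type replicate 1, 14.1 CPM in wild-type replicate 2, and 10.7 and 8.01 CPM in the mutant libraries, so that both wild-type libraries lay above both mutant libraries. ZIC2 was at 30.3 CPM in wild-type replicate 1 and at 17.5, 17.4 and 19.0 CPM in the others, where the groups overlapped. Wild-type replicate 1 exceeded the mean of the rest 3.89 times for ZIC1 and 1.69 times for ZIC2. ZIC4, a neighbour of ZIC1 in the same family, was at 16.9, 3.83, 1.91 and 1.86 CPM in the same order, while ZIC5 was at 6.26, 4.97, 4.96 and 4.67 CPM. In the septum and basal forebrain list, which holds both, wild-type replicate 1 was highest for only these 2 of 7 tested genes. The list's median ratio of that library to the mean of the rest was 0.529. That median is the value of GBX1, counted 15, 14, 37 and 33 times. GBX1, CHAT, SLC18A3, SLC5A7 and NKX2-1 had at most 40 counts in any library, so the median rests on few reads.

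PRKCD was at 36.7 CPM in wild-type replicate 1 and at 19.8 CPM in wild-type replicate 2, against 18.9 and 17.4 CPM in the mutants. RORA showed the smallest excess of the 8, at 52.1 CPM against 41.0, 37.7 and 40.3 CPM, a ratio of 1.31 to the mean of the other 3 libraries. CBLN1 was counted 215, 108, 85 and 80 times, or 16.2, 8.79, 6.49 and 5.94 CPM. Groups did not overlap for these genes, but for PRKCD and RORA wild-type replicate 2 was only 1.09 and 1.05 times the mutant mean. For CBLN1 it was 1.42 times, and for ZIC1 1.51 times.

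**Figure D1:**
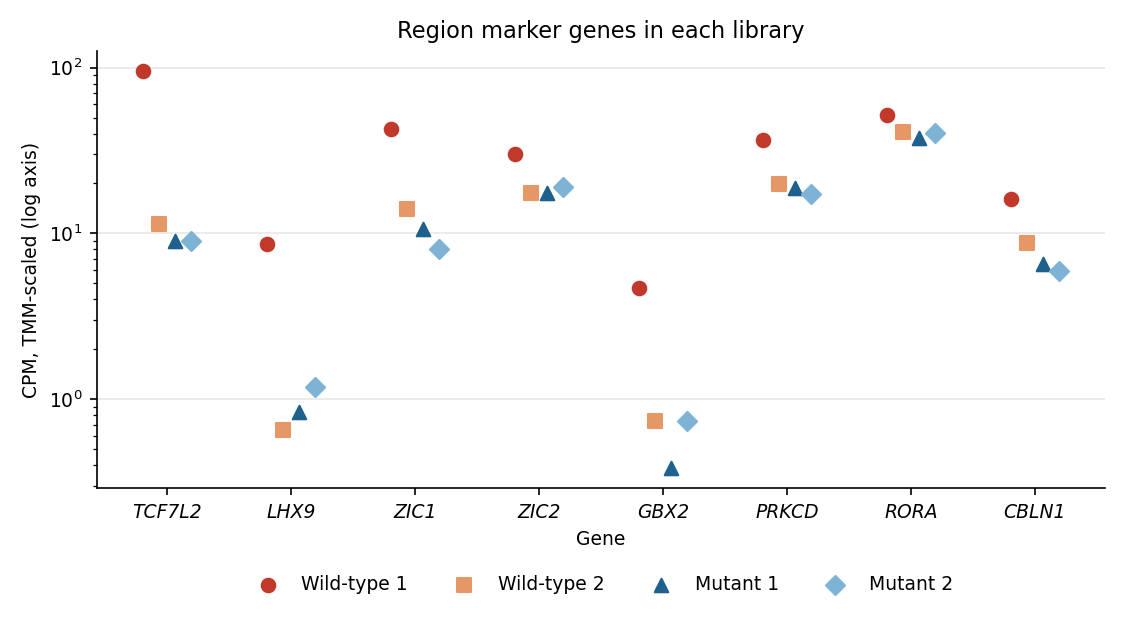
Level of each of the 8 genes in each library, as TMM-scaled CPM on a log axis, with 1 point per library. Wild-type replicate 1 is the highest point for every gene, and the other 3 libraries cluster below it, from a 9.82-fold gap for TCF7L2 to 1.31-fold for RORA against their mean.

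The comparison of mutant with wild-type libraries, the only one the design holds, inherited this spread. In edgeR's quasi-likelihood fit over 16956 genes, 2.23% of genes passed a Benjamini-Hochberg adjusted p of 0.05. The mutant libraries were lower for 266 genes (1.57%) and higher for 112 (0.661%). Of the 8 genes, 7 were tested, all 7 with a negative log2 fold change (median -1.01, against -0.0040 over all genes tested). CBLN1 was the 1 member past the threshold, and nothing is read from that count because the members were chosen with these values known. Groups did not overlap in 5 of the 7, as in 43.1% of all genes tested. Fold changes of the most divergent genes carried wide errors. For TCF7L2, the wild-type mean of 53.6 ± 59.8 CPM and the mutant mean of 8.99 ± 0.0214 CPM (SD, n = 2 each) gave a log2 fold change of -2.58 with an SE of 1.49. ZIC1 stood at 28.3 ± 20.1 against 9.35 ± 1.89 CPM (SD, n = 2 each), with a log2 fold change of -1.60 (SE 0.81). LHX9 was at -2.20 (SE 1.66), PRKCD at -0.64 (SE 0.25), ZIC2 at -0.40 (SE 0.21) and RORA at -0.25 (SE 0.14). CBLN1 stood at 12.5 ± 5.25 against 6.21 ± 0.391 CPM (SD, n = 2 each), a log2 fold change of -1.01 (SE 0.26).

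Without wild-type replicate 1, the median of the 7 genes went from -1.01 to -0.13, and none of them passed, where 2.09% of all genes tested did. In that fit the lone wild-type library is assumed to vary as the mutant libraries do. The log2 fold change of TCF7L2 became -0.33 (SE 0.27), that of ZIC1 -0.59 (SE 0.25) and that of CBLN1 -0.50 (SE 0.30). LHX9 changed sign, to 0.63 (SE 0.78), and ZIC2 lay at 0.056 (SE 0.22). PRKCD came to -0.13 and RORA to -0.07. Without wild-type replicate 2 instead, 6 of the 7 passed, where 3.31% of all genes tested did, all lower in the mutant libraries, and the median was -1.38. RORA was the member that did not pass there. CBLN1 also missed the threshold at a similar log2 fold change without mutant replicate 1 (-1.08), without mutant replicate 2 (-0.95), and by DESeq2 (-1.01), which called 1.38% of the rows it gave an adjusted p.

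**Figure D2:**
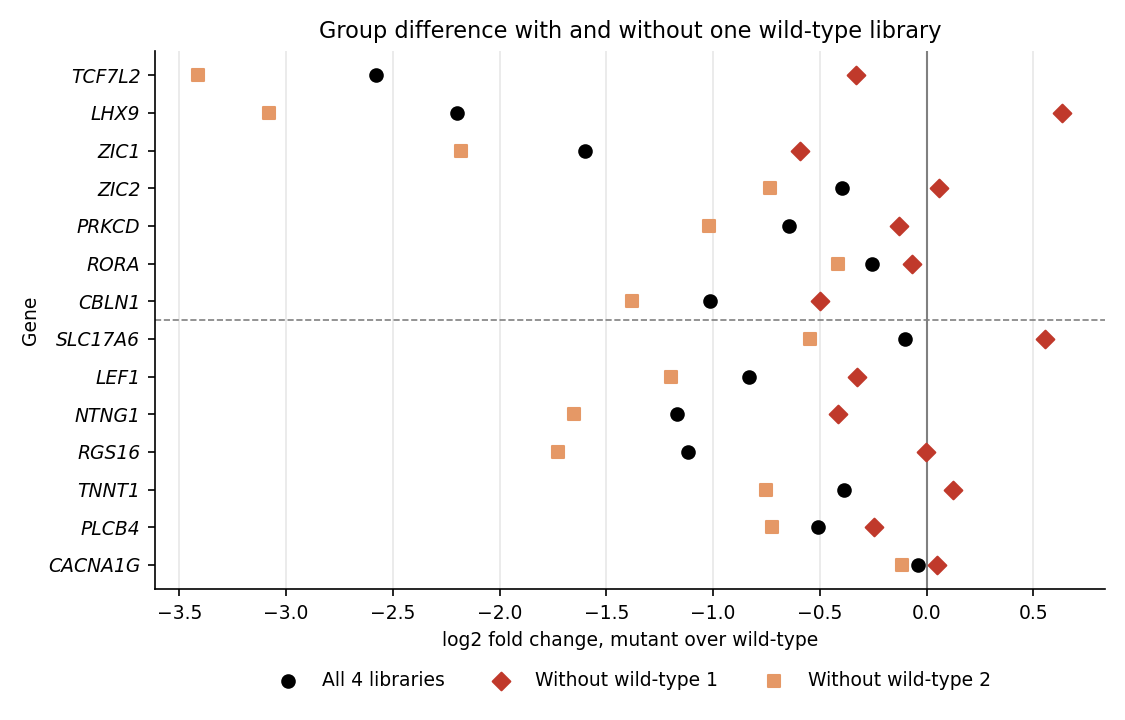
Log2 fold change, mutant over wild-type, for the 7 tested genes of the set (above the dashed line) and 7 other thalamic genes (below it), with all 4 libraries and with either wild-type library left out. Leaving out wild-type replicate 1 moves every point to the right, with TCF7L2 going from -2.58 to -0.33, and leaving out wild-type replicate 2 moves every point to the left.

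A list of 10 further genes of the thalamus was described in the same way. Of its 7 tested genes, none passed by edgeR or DESeq2. At an unadjusted edgeR p under 0.05, 2 of the 7 were lower, as were 1314 of all 16956 genes tested. All 7 were highest in wild-type replicate 1, against 25.7% of all genes tested. The axon protein NTNG1, a netrin relative of thalamocortical axons, was at 52.1 and 22.1 CPM in the wild-type libraries and at 16.4 and 16.7 CPM in the mutant libraries. RGS16, a brake on G protein signalling, was at 13.5, 4.07, 3.97 and 4.16 CPM. SOX14, a factor of inhibitory neurons of the rostral thalamus and midbrain, was counted 40 times in wild-type replicate 1 and 0 times in each other library, where a count of 0 allows up to 3 counts, or between 0.223 and 0.244 CPM.

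SLC17A6 was at 71.4 CPM in wild-type replicate 1 but lowest in wild-type replicate 2 (33.2 CPM), with the mutant libraries between (45.7 and 51.9 CPM). Its log2 fold change was -0.10 with all libraries and 0.55 without wild-type replicate 1. LEF1, the Wnt-pathway relative of TCF7L2, was at 19.5, 10.7, 7.86 and 9.13 CPM. The log2 fold change of LEF1 was -0.83 (SE 0.25, edgeR quasi-likelihood, Benjamini-Hochberg adjusted p = 0.0801), and -0.33 without wild-type replicate 1. The muscle-type troponin TNNT1 was at 9.73, 5.29, 6.11 and 5.42 CPM. PLCB4, a phospholipase of thalamic and Purkinje neurons, was at 32.7, 23.4, 20.1 and 19.5 CPM. The T-type calcium channel CACNA1G, which is also made in cortex, barely differed (165, 147, 143 and 162 CPM). SLC6A4, the serotonin transporter, had at most 10 counts in any library, and OLIG3, a factor of thalamic progenitors, was at 0 in all 4. The list's median log2 fold change was -0.51 with all libraries and -0.0028 without wild-type replicate 1. Without wild-type replicate 2, 5 of the 7 were lower in the mutant libraries at the threshold, with a median of -0.75.

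The genes whose pattern over the 4 libraries lay nearest that of TCF7L2 were found by Euclidean distance between centred log2(CPM + 1) values, among the 13651 tested genes that have a symbol and a mean of at least 1 CPM. In order, they were ZWINT, ZIC4, LHX9, PTPN3, ZIC1, PAPPA, NHLH2 and GLRA1. GBX2 was not tested and so not ranked, and its distance of 1.21 lies between those of ZIC1 (1.16) and PAPPA (1.27). Of the remaining members, CBLN1 ranked 35, PRKCD 64, ZIC2 173 and RORA 909. The likeness rests on 4 libraries and largely on the height of 1, so it is a description only. ZWINT, a kinetochore protein, was counted 122, 14, 7 and 7 times, the glycine receptor subunit GLRA1 69, 17, 12 and 12 times, and NHLH2, a helix-loop-helix factor of developing neurons, 68, 10, 15 and 9 times. PTPN3, a tyrosine phosphatase, was at 29.6, 9.77, 5.95 and 6.31 CPM. PAPPA, a protease that frees insulin-like growth factors, was counted 121, 21, 18 and 34 times. None of the 8 nearest genes was among the 378 that passed (2.23% of all genes tested). Genes with wild-type libraries this far apart pass less easily, so nothing is read from that count.

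Markers of other regions did not follow 1 pattern. Of 16 hindbrain genes, 9 were at 0 in all 4 libraries, all of them HOX genes, which specify hindbrain and spinal cord segments. The midbrain and hindbrain homeobox gene EN1 was at 0 throughout, and EN2 was counted 0, 1, 0 and 0 times. Cerebellar genes were few in reads and showed no excess in wild-type replicate 1 as a group, with a median ratio of 1.06 to the other 3 libraries over 5 tested genes. GABRA6, the granule cell receptor subunit, was counted 0, 4, 11 and 4 times, and PCP2 of Purkinje cells 25, 26, 20 and 23 times. The HOX genes, EN1, EN2 and GABRA6 were thus at or near 0 in wild-type replicate 1. In the midbrain list, the factor TAL1 was counted 154, 110, 104 and 95 times, GATA2 13, 20, 12 and 15 times, and the dopamine transporter SLC6A3 23, 18, 11 and 2 times. GATA3, which like GATA2 marks inhibitory midbrain neurons, was counted 13, 0, 0 and 0 times, and TH, which makes the precursor of dopamine, 2, 6, 1 and 4 times. In the habenula list, beside the thalamus, the factor POU4F1 was counted 7, 0, 2 and 2 times and GPR151 5, 3, 9 and 4 times. The receptor subunits CHRNB3 and CHRNA3 were counted 336, 243, 252 and 318 times and 28, 19, 20 and 25 times. CHRNB4, another subunit, was counted 56, 29, 82 and 75 times, so both mutant libraries lay above both wild-type libraries. Its log2 fold change was 0.84 (SE 0.32), and it did not pass. Of the 12 hypothalamic genes, 4 were tested, with a median log2 fold change of -0.0053. The hormone precursors TRH and POMC were counted 94, 48, 71 and 69 times and 47, 22, 40 and 34 times. Wild-type replicate 1 was highest for 3 of the 4, the exception being AVP (8, 26, 2 and 43 counts). Their median ratio of that library to the mean of the other 3 was 1.46. That library was also highest for 2 of 3 tested midbrain genes (median ratio 1.46) and 2 of 3 tested habenula genes (1.21). An excess in wild-type replicate 1 was thus not confined to the thalamic lists. SIM1, HCRT and PMCH had 1, 3 and 7 counts in wild-type replicate 1 and at most 1 count elsewhere.

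Defining genes of the tissues named in the study were present in all 4 libraries. The 11 cortical genes together stood at 2436 CPM in wild-type replicate 1, 2756 CPM in wild-type replicate 2, and 2912 and 2890 CPM in the mutant libraries. SLC17A7, the cortical vesicular glutamate transporter, had 12616, 14754, 14917 and 14547 counts. Wild-type replicate 1 was the highest library for none of the 11. Of the 11, 2 rose in the mutant libraries and 0 fell. These were the neuronal factors NEUROD6 (log2 fold change 0.41, SE 0.11, edgeR adjusted p = 0.0469) and BHLHE22 (0.54, SE 0.12, edgeR adjusted p = 0.0103), and neither passed without wild-type replicate 1 (edgeR adjusted p = 0.104 and 0.240), where their log2 fold changes were 0.47 and 0.39. The 13 striatal genes summed to 778, 729, 653 and 806 CPM and the 6 hippocampal genes to 105, 101, 92.1 and 92.1 CPM. None of the 13 striatal or 5 tested hippocampal genes passed by edgeR or DESeq2, with 3 and 0 of them at an unadjusted p under 0.05. Over all 16956 genes tested, 2270 were under that unadjusted p by edgeR. Across meningeal genes, of which ZIC1 is also known, wild-type replicate 1 was the highest for none of 11, and the sum was 428 CPM there against 570, 613 and 438 CPM. The part of meningeal tissue in the ZIC1 counts was not tested.

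**Figure D3:**
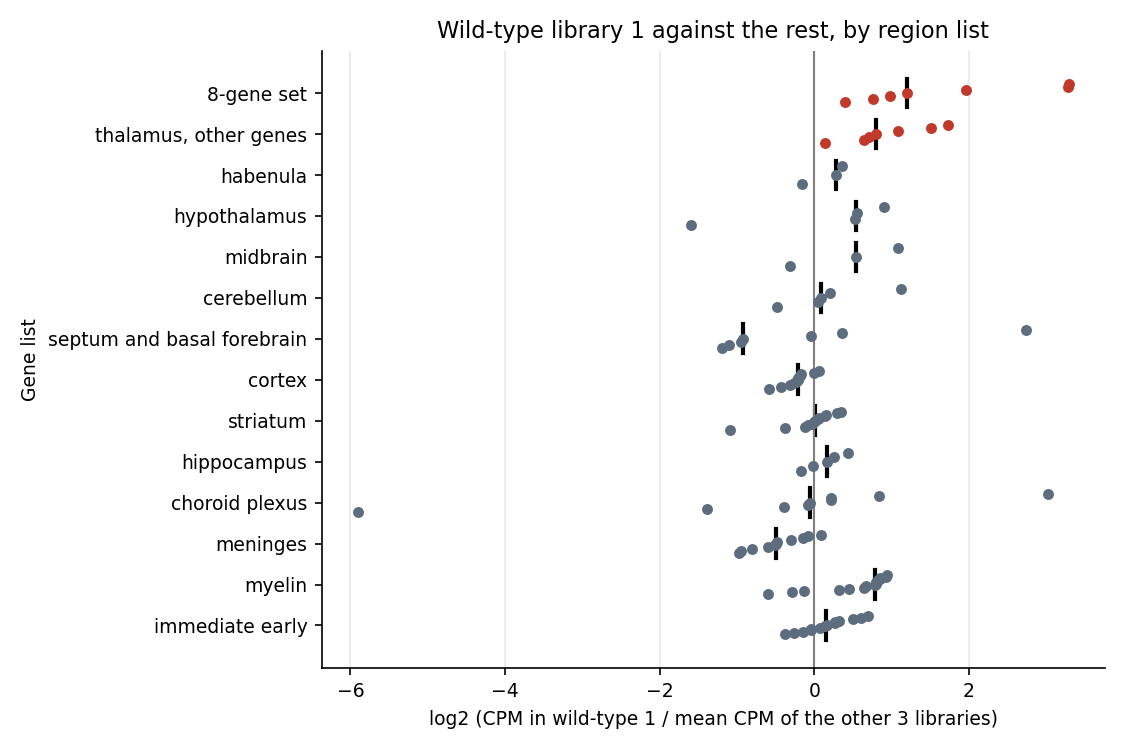
Ratio of wild-type replicate 1 to the mean of the other 3 libraries, on a log2 axis, for each tested gene of each list, with a black bar at the list's median. The 8-gene set (7 tested) and the other thalamic genes (median ratio 1.74) lie to the right of 0 in full. The cortical list has its median to the left of 0 (a ratio of 0.861). Medians also lie to the right for the myelin (1.73), hypothalamus (1.46) and midbrain (1.46) lists. The ratio also takes in differences between the groups, since the mutant libraries are among the other 3. The hindbrain list is left out because only 1 of its genes was tested.

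Over the whole table, wild-type replicate 1 was the library with the most genes of its own. At least 2-fold above each of the other 3 libraries were 82 of the 16956 genes tested in wild-type replicate 1 (0.484%), 22 in wild-type replicate 2, 22 in mutant replicate 1 and 20 in mutant replicate 2. Of the 7 tested members, TCF7L2, LHX9 and ZIC1 were among the 82. Genes at least 2-fold below each other library numbered between 119 and 135 in all 4.

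**Figure D4:**
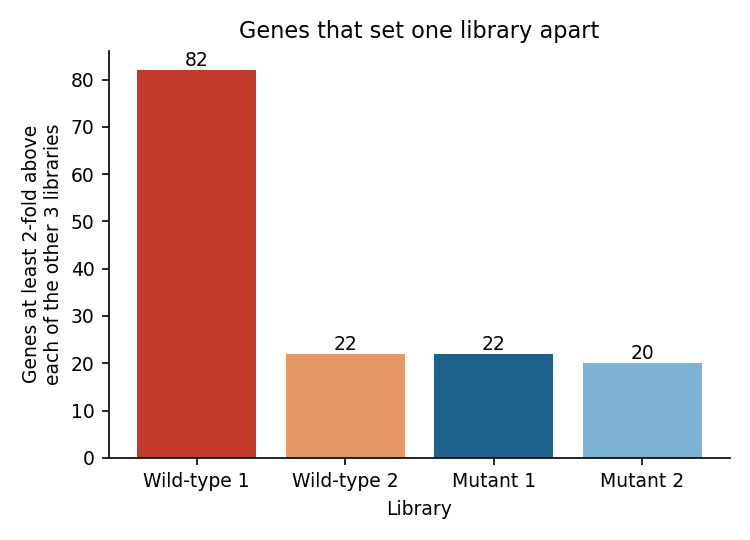
Number of tested genes whose CPM in a library was at least 2-fold above that in each of the other 3. Wild-type replicate 1 has 82 such genes and the other libraries have 20 to 22.

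Over all 16956 genes tested, 82 (0.484%) were at least 2-fold above each other library in wild-type replicate 1. Of the 378 genes past the threshold, 3 were. They were FRMD1, PLEKHD1 and the macrophage chitinase CHIT1, with log2 fold changes of -3.14, -2.03 and -3.08, and none of the 3 passed without that library. Over the 266 genes lower in the mutant libraries, the median ratio to the mutant mean was 1.73 for wild-type replicate 1 and 1.70 for wild-type replicate 2. Over the 112 higher genes it was 0.623 and 0.619. A gene passes the test more easily when its replicates lie close, so the count of 3 and the near-equal ratios are in part set by the selection. Without wild-type replicate 1, 355 genes passed, 228 of them among the 378, which is 60.3% of the 378 and 64.2% of the 355. Without wild-type replicate 2, 562 passed, 255 of them shared. Without mutant replicate 1 or 2, 163 and 220 passed, with 139 and 158 shared.

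**Figure D5:**
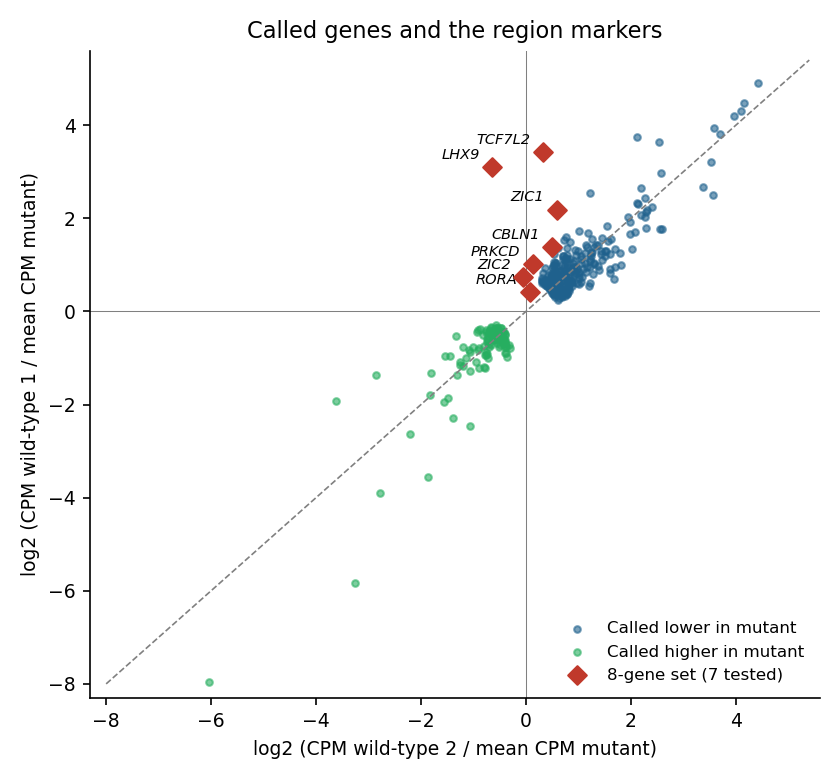
Log2 ratio of each wild-type library to the mutant mean for 372 of the 378 genes past the threshold (6 with a count of 0 in a wild-type library or in both mutant libraries are not drawn) and for the 7 tested region markers. Genes past the threshold lie along the dashed line of equal ratios, while TCF7L2, LHX9 and ZIC1 lie well above it.

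Myelin genes, which were lower in the mutant libraries, were set beside the markers because TCF7L2 is also made by young oligodendrocytes. The 16 myelin genes summed to 3758 and 3673 CPM in the wild-type and to 1468 and 1412 CPM in the mutant libraries. TCF7L2 differed 8.48-fold between the wild-type libraries. These are genes of mature myelin, and the part of newly formed oligodendrocytes in the TCF7L2 counts was not tested. Of the 16, 12 fell and 0 rose by edgeR, and the same 12 passed with any 1 of the 4 libraries left out. The median log2 fold change of the list was -1.24 with all libraries and -1.25 without wild-type replicate 1. For 14 immediate early genes, which respond to neuronal activity, 6 fell with all libraries and the same 6, with 3 more, passed without wild-type replicate 1. Of the 6, all passed with wild-type replicate 2 left out, 4 with mutant replicate 1 left out and 2 with mutant replicate 2 left out, and 5 genes of the list fell by DESeq2.

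Among 25 family relatives of the 8 genes, 21 were tested, 2 fell and 0 rose, with a median log2 fold change of -0.22. Without wild-type replicate 2, 4 fell. ZIC4 had a log2 fold change of -2.46 with all libraries and -1.02 without wild-type replicate 1, and did not pass in either fit. The kinase PRKCA was at 184 and 189 CPM in wild-type and 137 and 131 CPM in mutant libraries (log2 fold change -0.48, SE 0.12, edgeR adjusted p = 0.0168). CBLN4, a cerebellin of cortex and other regions, was at 16.4 and 11.8 against 8.63 and 7.27 CPM (-0.83, SE 0.22, edgeR adjusted p = 0.0394). PRKCH, an isoform known from T cells and endothelium, was counted 163 times in wild-type replicate 1 and 52, 76 and 76 times in the others. Of the 5 synaptic partners of CBLN1, NRXN3 fell (157 and 153 against 108 and 110 CPM, log2 fold change -0.51, SE 0.12, edgeR adjusted p = 0.0132), and the other 4 did not pass. None of PRKCA, CBLN4 and NRXN3 passed without wild-type replicate 1, where their log2 fold changes were -0.50, -0.57 and -0.49. CBLN4 missed the threshold by DESeq2 as well.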

How the data were processed

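Whole-number counts per gene were deposited by the authors with no normalization. Libraries were poly(A)-selected with a directional kit, per the labels' protocols, and Trimmomatic 0.38 and STAR 2.7.10a are named in the submitters' processing notes. Not given in the sources used here are the counting tool, build and strand setting. Columns were matched to libraries by name, and totals ran from 12331639 to 13455702 counts. Genes passing filterByExpr (minimum count 10) were scaled by TMM and tested with edgeR 4.0.16 in R 4.3.3 (quasi-likelihood, robust, 2 residual degrees of freedom), with Benjamini-Hochberg adjustment over all 16956 genes and SE as the log2 fold change over the root of F. The fit was also run on simulated counts in which the libraries of a group shared the same expected level of each gene. No simulated library was set apart from its group partner, so that run does not bear on genes such as TCF7L2. Fits without a library used the same genes. Members and lists were chosen with earlier results of these data known. Named were all members, the 8 genes nearest TCF7L2, all tested thalamic genes, and in other lists genes by abundance or smallest p. Others singled out (EN1, EN2, GABRA6, PCP2, GATA3, TH, POU4F1, GPR151, SIM1, HCRT, PMCH, PRKCH, FRMD1, PLEKHD1, CHIT1, OXT and OTX2) were chosen after their values were seen. Alternatives were RLE scaling, DESeq2 1.42.0 on all rows, no low-count filter, a replicate block, and each library left out.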

Additional observations from a re-analysis of the deposited data

How the results depend on the processing

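The count of 378 changed genes was 244 by DESeq2, 633 without the low-count filter, and 163 to 562 with 1 library left out. The count of changed members, 1 in the main comparison, was 0 by DESeq2, 3 without the filter (CBLN1, PRKCD and GBX2), and 0 to 6 with 1 library left out, 6 being without wild-type replicate 2. Scaling by RLE left it at 1 and gave 373 changed genes. LHX9 and ZIC2 were the members that changed sign under any of these settings, both without wild-type replicate 1, and their log2 fold changes ranged from -3.08 to 0.63 and from -0.73 to 0.056 with 1 library left out. The 12 fallen myelin genes were 12 under all of these settings. With the replicate number as a block, 493 of the 16956 genes tested changed, with 2 members among them (ZIC1 and CBLN1). Deviations of same-numbered libraries correlated at r = 0.017 over genes, so the numbers were not taken to pair the libraries. Depth limits LHX9, GBX2 and SOX14, which had at most 16 counts outside wild-type replicate 1. With 2 libraries a group, 1 library sets the spread of each member.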

Other observations

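Some other regional genes set other libraries apart. TTR, the main secreted protein of the choroid plexus, had 1244 counts in mutant replicate 1 and 87 in mutant replicate 2, against 8 and 89 in the wild-type libraries, so mutant replicate 1 stood out there. OTX2, a homeobox gene of choroid plexus and midbrain, had 78, 5, 23 and 0 counts, the wild-type libraries first. Wild-type replicate 1 was thus the highest library for OTX2, as for the members. The hypothalamic hormone gene OXT had 0, 51, 0 and 5 counts, and AVP 8, 26, 2 and 43. Wild-type replicate 1, the highest library for all members, was thus the lowest for TTR. None of TTR, OTX2 and AVP passed the edgeR test, and OXT fell short of the low-count filter.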
